A study of Mus musculus with 18 samples.

Results

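The effect of deleting Hdac2 from endothelial cells was examined on the injured side of the mouse cortex after a stroke. The 3 libraries labelled MCAO-Hdac2 ECKO were compared with the 3 labelled MCAO, all from the ipsilateral side, which is the side of the vessel that was closed. These 6 of the 18 libraries of the series were chosen by their labels alone. Of 21638 genes, the 17094 that reached a count of 10 in 3 or more libraries were compared.

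MCAO, middle cerebral artery occlusion, is a surgical model of ischaemic stroke, and ECKO stands for an endothelial knockout. The deleted mice were Hdac2lox/lox:Cdh5CreERT2, in which tamoxifen activates a recombinase driven by the promoter of Cdh5, the gene of an endothelial adhesion protein. Tamoxifen was given at 75 mg/kg from day 0 to day 4 in 5 doses, and brains were taken on day 7 of the stroke. The MCAO controls are labelled wild type and also tamoxifen-treated. The labels do not say whether they carried a floxed allele or the recombinase, so effects of those and of the deletion cannot be told apart. Endothelial cells of adult mice were sorted from the cortex by CD31 on their surface and the lack of CD41 and CD45, which mark platelets and leukocytes. Their RNA was amplified by a method for very small samples and sequenced. Sham ipsilateral mice (wild type, tamoxifen, no occlusion) and Ezh2 ECKO ipsilateral mice (Ezh2lox/lox:Cdh5CreERT2, tamoxifen, occluded) serve below as 2 further reference groups of 3 libraries. The labels do not say that the replicates came from separate mice, so p-values measure only the spread between these libraries, which may be technical.

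Hdac2 is a class I histone deacetylase. It removes acetyl groups from histone tails as the catalytic part of the NuRD, Sin3 and CoREST corepressor complexes, which keep many genes at a low level, and its close relative Hdac1 sits in the same complexes. The Nr4a genes named below belong to the immediate early genes, which cells switch on within minutes of a stimulus without making new protein. Among these genes are transcription factors of the Fos, Jun, Egr and Nr4a families and phosphatases that end the signal. Brain endothelium carries the transporters and tight junctions of the blood-brain barrier.

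The upstream sequences of Nr4a1, Nr4a2 and Adamts1 are shown first. The core of the cyclic AMP response element recurs in those of Nr4a1 and Nr4a2, the genes that the comparison turns on. RefSeq promoter windows (GRCm38.p6) run from 250 bases before to 50 bases after the annotated start. Capitals mark the core TGACG or its reverse complement CGTCA. Nr4a1 lies on chr15:101266596-101266895 (plus strand), Nr4a2 on chr2:57123954-57124253 (minus strand) and Adamts1, the higher gene with the next smallest p-value, on chr16:85803064-85803363 (minus strand).
Nr4a1: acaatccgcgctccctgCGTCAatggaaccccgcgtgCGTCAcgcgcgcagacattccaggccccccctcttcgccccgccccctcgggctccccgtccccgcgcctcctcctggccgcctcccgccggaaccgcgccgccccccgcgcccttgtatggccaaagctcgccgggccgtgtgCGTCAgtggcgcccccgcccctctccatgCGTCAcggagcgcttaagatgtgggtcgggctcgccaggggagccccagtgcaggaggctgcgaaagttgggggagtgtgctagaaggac
Nr4a2: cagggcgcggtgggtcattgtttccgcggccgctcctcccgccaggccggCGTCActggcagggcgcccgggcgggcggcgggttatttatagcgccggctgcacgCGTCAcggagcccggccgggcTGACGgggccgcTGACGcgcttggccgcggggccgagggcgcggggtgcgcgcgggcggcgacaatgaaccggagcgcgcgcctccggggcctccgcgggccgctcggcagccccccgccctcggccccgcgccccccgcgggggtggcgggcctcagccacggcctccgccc
Adamts1: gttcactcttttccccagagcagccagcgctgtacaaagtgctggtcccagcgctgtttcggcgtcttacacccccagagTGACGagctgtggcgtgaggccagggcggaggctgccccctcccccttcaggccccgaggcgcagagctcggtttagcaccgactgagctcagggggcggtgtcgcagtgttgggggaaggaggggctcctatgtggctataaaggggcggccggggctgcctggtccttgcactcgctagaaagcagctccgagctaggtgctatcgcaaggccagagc
The Nr4a1 window held 4 cores, at 233, 213, 69 and 40 bases before the start. The Nr4a2 window also held 4, at 200, 144, 123 and 111 bases before the start, and the Adamts1 window held 1. At least 1 core on either strand stood in 30.0% of the windows of the 13227 tested genes that matched the table, and 4 or more in 0.454%. None of the windows shown held the full element TGACGTCA. These windows are rich in G and C, with 72.3% in Nr4a1 and 81.7% in Nr4a2. The shares were not adjusted for GC content, and a role of the element was not tested.

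The same motifs were looked for in the 21 immediate early genes with a window. The core was present in 13 of them, and 9 held 2 or more, against 8.48% of the matched genes. Nr4a3 held 4 and Dusp1 held 3. The full element TGACGTCA, a palindrome whose strands each hold a core, was present in 3 of the 21 (Btg2, Dusp1 and Maff), against 2.99% of the matched genes. Further motifs were counted in the same windows. The AP-1 site TGANTCA was present in 1 of 21 against 7.73%, the CArG box in 3 against 1.61%, and the NGFI-B response element AAAGGTCA, which Nr4a proteins bind, in 0 against 1.43%. A match is a string of letters in this window only.

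The 3 libraries under the deletion label held 31008561 to 45186120 counts each, and the MCAO controls 40711581 to 51313194. Levels are given as CPM, counts per 1000000 counts of the library after TMM scaling, which adjusts each library for its composition. All 6 libraries carried endothelial markers. Pecam1, which encodes CD31, stood at 294 to 362 CPM under the deletion label and 342 to 452 CPM in the controls. Ptprc, which encodes CD45, stood at 1.06 to 1.26 and 0.309 to 0.813 CPM. Itga2b, which encodes CD41, was uneven under the deletion label, at 34.7, 19.6 and 7.67 CPM against 11.7 to 16.8 CPM. The summed level of 6 platelet markers was 81.9, 46.6 and 8.03 CPM against 36.2 to 38.4 CPM. The groups also differed in other ways. The summed level of the 11 endothelial markers was 15272 to 18186 CPM against 18980 to 26688 CPM, without overlap. Ly6c1, the most abundant, had means of 7686 and 14514 CPM and so carried that difference. Counted by gene, the list was mixed. At an unadjusted p under 0.05, 4 of the 11 markers were higher and 1 lower, beside 4.61% and 5.24% of all tested genes. None was called. Kdr had means of 333 and 196 CPM, whereas Cldn5 had means of 939 and 1699 CPM. Globin genes took 19.9%, 19.5% and 5.41% of the counts under the deletion label and 3.78% to 5.78% in the controls. The rank correlation of level with GC content across genes was 0.077, 0.029 and −0.190 under the deletion label and 0.272 to 0.374 in the controls, again without overlap. With gene length it was −0.139, −0.169 and 0.145 against −0.397 to −0.275, also without overlap. Of 19 such library values the lowest two-sided exact permutation p was 0.1, the smallest possible for 3 against 3, or 0.475 after adjustment. The log2 fold changes between the groups had rank correlations of −0.295 with GC content and 0.217 with gene length over 11633 genes.

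The deleted gene was checked first. Hdac2 (chromosome 10, 36974544 to 37001889, plus strand) had levels of 57.6, 85.0 and 87.9 CPM under the deletion label, while the MCAO controls had 84.4, 68.2 and 96.1 CPM. The groups overlapped, with a log2 difference of −0.11 ± 0.32 (SE; adjusted p 0.925), so a lower Hdac2 transcript was not detectable here. The table gives whole-gene values, so loss of single exons was not analysed here, and transcripts that lack only the floxed part may still be counted. The directions below rest on the labels. In the libraries labelled Ezh2 ECKO, Hdac2 stood at 140, 156 and 118 CPM.

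Its relatives and partners showed no called gene either. Hdac1 stood at 23.1, 32.3 and 57.7 CPM against 34.3, 63.6 and 43.9 CPM (log2 fold change −0.33 ± 0.51, adjusted p 0.855). Hdac3 differed by 0.25 ± 0.56 (0.904) and Hdac8, the lowest class I gene, by −1.28 ± 0.87 (0.656). Among 19 deacetylase and MEF2 genes, 1 was higher and 1 lower at an unadjusted p under 0.05, with a median log2 fold change of 0.01. Over all tested genes 4.61% were higher and 5.24% lower, so these counts are near the background. The genes were Sirt1 (1.07 ± 0.40, adjusted p 0.426) and Sirt2 (−1.18 ± 0.56, adjusted p 0.505), both of the NAD-dependent sirtuin class. Among 31 subunits of the class I corepressor complexes the counts were also 1 and 1, below those shares, with a median of −0.23.

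Across all genes, 2 of 17094 (0.0117%) had an adjusted p under 0.05 by edgeR's quasi-likelihood F-test, and both were higher in the libraries labelled Hdac2 ECKO. At an unadjusted p under 0.05 there were 1683 genes (9.85%), of which 788 (4.61%) were higher and 895 (5.24%) lower. The 3 and 3 libraries did not overlap for 3396 genes (19.9%; 9.54% higher and 10.3% lower). The log2 fold change was above 0 for 54.8% of genes, with a median of 0.11. DESeq2 called 242 genes (1.42%), 101 higher and 141 lower, and limma voom with sample weights called 32 (0.187%), 26 higher and 6 lower. DESeq2 gave no adjusted p for 3390 of the 17094 genes. Its shares here and below are over all 17094, so they are lower than over the genes it could call. A total of 30 genes were called by DESeq2 and voom, and 2 by all 3 tools.

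**Figure D1:**
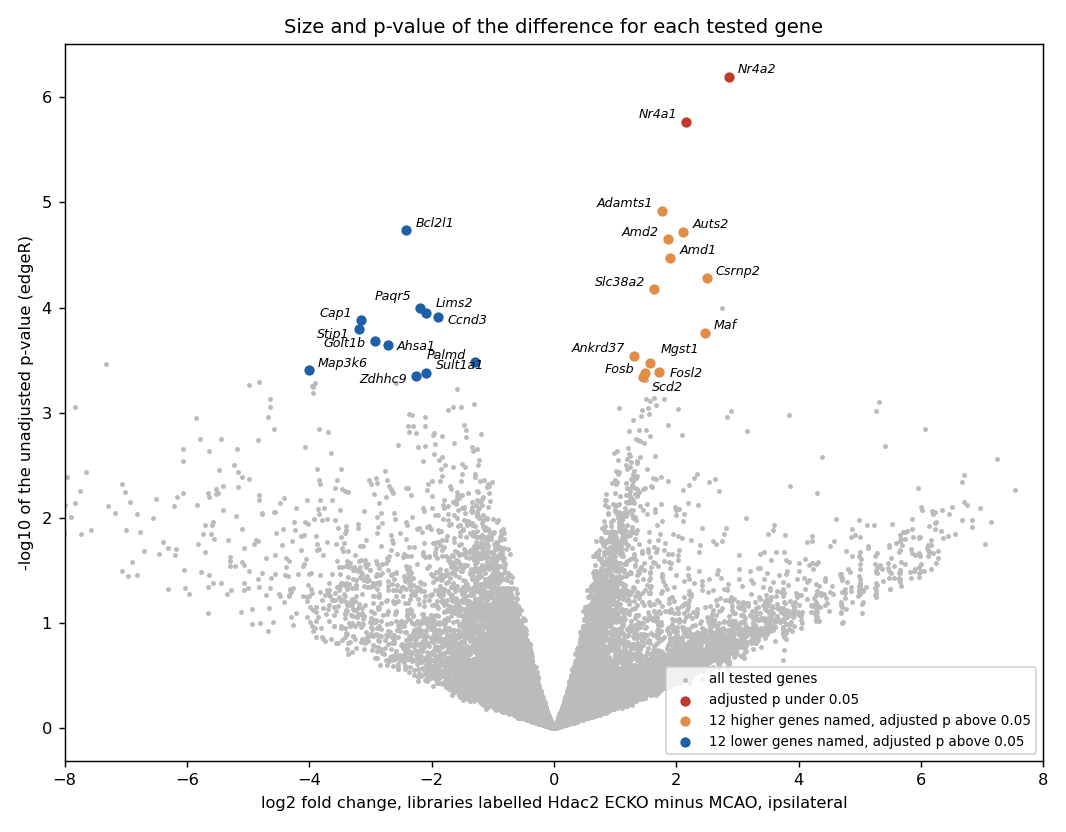
The log2 fold change (horizontal) against −log10 of the unadjusted edgeR p-value (vertical) for each tested gene, with 9 genes beyond the horizontal range not drawn. Nr4a2 and Nr4a1 (red) stand above all other genes, and 12 higher (orange) and 12 lower genes (blue) that missed the adjusted threshold are named.

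The 2 called genes were Nr4a2 and Nr4a1, which encode the orphan nuclear receptors Nurr1 and Nur77. Nr4a2 (chromosome 2, 57106830 to 57124003, minus strand) reached 328, 209 and 292 CPM under the deletion label, against 40.3, 26.3 and 47.9 CPM in the MCAO controls. It rose 7.23-fold, or by 2.85 ± 0.41 (SE) on the log2 scale (adjusted p 0.0109). The levels of Nr4a1, which lies on chromosome 15 from 101254269 to 101274795 (plus strand), were 269, 192 and 177 CPM against 46.5, 46.0 and 50.8 CPM. It rose 4.45-fold, or by 2.15 ± 0.33 (adjusted p 0.0147). For both genes each library labelled Hdac2 ECKO was above all 15 other libraries of the series, whose highest values were 173 CPM for Nr4a2 and 106 CPM for Nr4a1. The third member, Nr4a3, which encodes Nor1, stood at 151, 30.0 and 55.2 CPM against 17.1, 18.6 and 8.37 CPM. Its groups did not overlap either, but its log2 fold change of 2.42 ± 0.89 did not pass (adjusted p 0.426), and replicate 1 was much the highest.

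**Figure D2:**
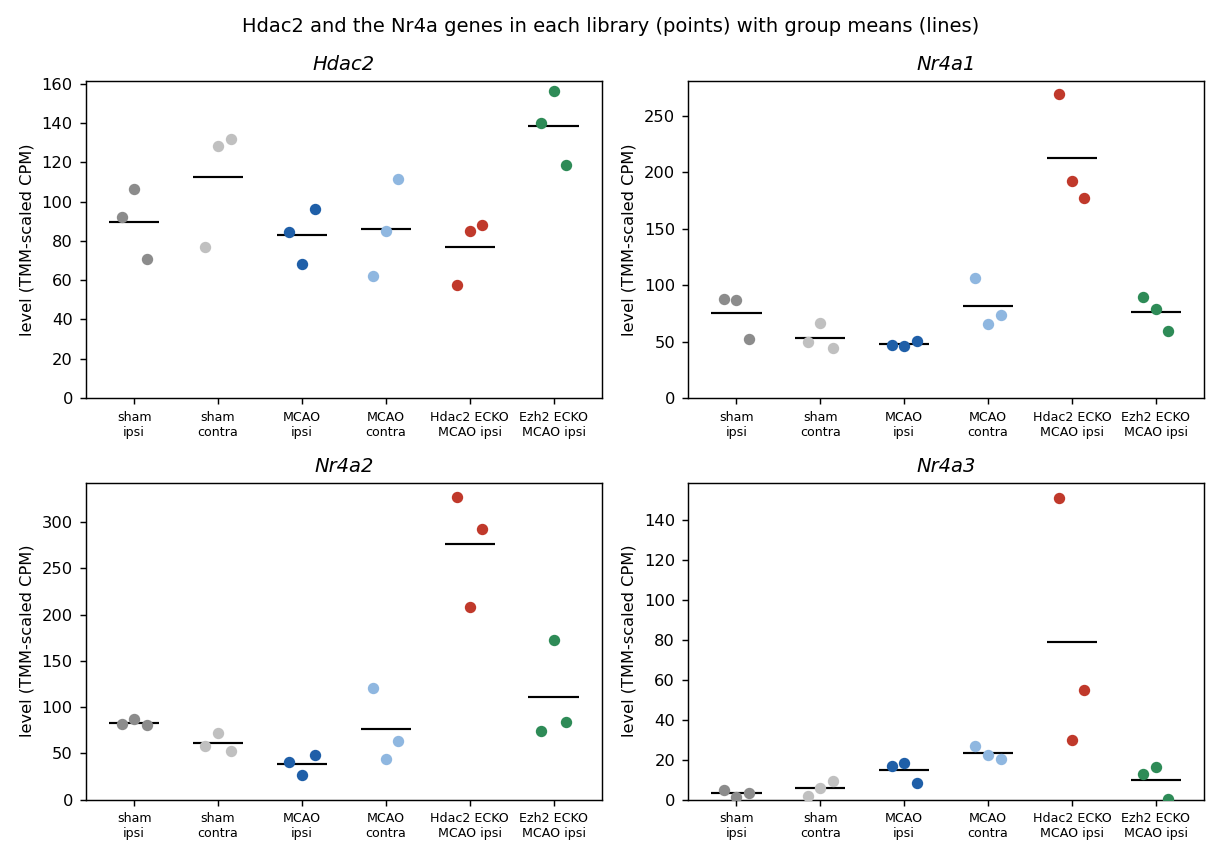
Level in TMM-scaled CPM (vertical, from 0) of Hdac2, Nr4a1, Nr4a2 and Nr4a3 in each of the 18 libraries (points), by group (horizontal), with the group mean as a line. Hdac2 overlaps between the libraries labelled Hdac2 ECKO and the MCAO controls, whereas the 3 libraries labelled Hdac2 ECKO are the highest for Nr4a1 (177 to 269 CPM) and Nr4a2 (209 to 328 CPM).

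The other groups gave the Nr4a levels a scale. In sham ipsilateral libraries Nr4a2 stood at 81.9, 86.9 and 81.2 CPM and Nr4a1 at 87.3, 87.1 and 52.3 CPM, above each MCAO control. Against sham, Nr4a1 differed by 1.49 ± 0.32 (adjusted p 0.151) and Nr4a2 by 1.73 ± 0.39 (0.177). Against the libraries labelled Ezh2 ECKO they differed by 1.49 ± 0.32 (0.0712) and 1.32 ± 0.39 (0.179). These comparisons share the libraries labelled Hdac2 ECKO, and neither gene was called in them. Leaving out MCAO replicate 1 or 2, or Hdac2 ECKO replicate 1, ended both calls, with adjusted p values of 0.0810 to 0.263. Leaving out Hdac2 ECKO replicate 2, or fitting the 6 libraries alone, ended the call of Nr4a1 only (0.0640 and 0.0679). Once each library was corrected for GC content, Nr4a2 passed (0.0440) and Nr4a1 did not (0.0532).

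The wider set of immediate early genes was higher for most members. Of 27 tested, 2 were called, 14 were higher and 0 lower at an unadjusted p under 0.05, against 4.61% and 5.24% of all tested genes. The median log2 fold change was 0.91 against 0.11 over all genes, and 23 of 27 were above 0. Of the list's 29 genes, Egr4 and Npas4 were under the count filter. The list was written with earlier results of these data known, so its direction is not independent evidence. The members named here other than the Nr4a genes and Fosl2 and Fosb were chosen after their values were seen.

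Among the Fos and Jun genes, whose proteins pair to form the AP-1 factor, Fosl2 stood at 215, 117 and 129 CPM against 62.3, 31.6 and 47.1 CPM (1.71 ± 0.41, adjusted p 0.24). Fosb stood at 355, 238 and 276 CPM against 82.2, 59.9 and 175 CPM (1.45 ± 0.35, 0.244). Both sets of libraries were apart, with Fosl2 above all 15 other libraries. Fos stood at 1125 to 1511 CPM against 397 to 901 CPM (1.18 ± 0.39, 0.394). Jun overlapped, at 144 to 221 CPM against 55.0 to 149.5 CPM (1.05 ± 0.41, 0.438), with MCAO replicate 3 inside the other group. Junb, Jund and Ier2 had unadjusted p values above 0.05.

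The Egr zinc finger genes differed in size but shared the direction. Egr3 stood at 88.8, 19.5 and 53.6 CPM against 7.36, 3.64 and 7.10 CPM (3.16 ± 0.87, adjusted p 0.301), the largest difference in the list. Egr1 overlapped, at 383, 194 and 166 CPM against 66.0, 64.4 and 197 CPM (1.18 ± 0.44, 0.426). Of the feedback genes, the phosphatase gene Dusp1 stood at 621 to 708 CPM against 250 to 479 CPM (0.80 ± 0.38, 0.505) and the antiproliferative gene Btg2 at 263 to 330 CPM against 67.6 to 260 CPM (1.12 ± 0.56, 0.525). Atf3, a stress factor gene, overlapped at 71.2 to 174 CPM against 63.1 to 73.6 CPM (1.00 ± 0.37, 0.426). The summed level of the list without the Nr4a genes was 6331, 4953 and 4465 CPM under the deletion label against 2630, 2792 and 3677 CPM in the controls, so replicate 3 of the controls was the nearest. This sum was not particular to the deletion label. It reached 4557 CPM in Ezh2 ECKO replicate 1 and 5170 CPM in MCAO replicate 3 of the opposite (contralateral) side.

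The direction of the list held against sham ipsilateral and Ezh2 ECKO, in comparisons that again share the libraries labelled Hdac2 ECKO. Against sham, 0 of the 27 were called (as were 0% of all genes), 11 were higher and 0 lower at an unadjusted p under 0.05, beside 4.54% and 2.6% of all genes, and 27 of 27 were above 0, as were 49.7% of all genes, with a median of 1.02. Against Ezh2 ECKO, 0 were called (0.123% of all genes were), 12 were higher and 0 lower, beside 6.96% and 4.25%, and 25 of 27 were above 0, beside 44.4%, with a median of 0.83. A separate list of 22 cyclic AMP response genes had, against the MCAO controls, 0 higher and 1 lower at an unadjusted p under 0.05, beside 4.61% and 5.24% of all genes, with a median of 0.33. Against sham it had 2 higher and 0 lower with a median of −0.07, and against Ezh2 ECKO 0 higher and 1 lower with a median of 0.04. How this list differs from the immediate early genes was not tested. The gene lower against the MCAO controls was Creb3, a membrane-bound factor (−1.51 ± 0.66, adjusted p 0.476).

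**Figure D3:**
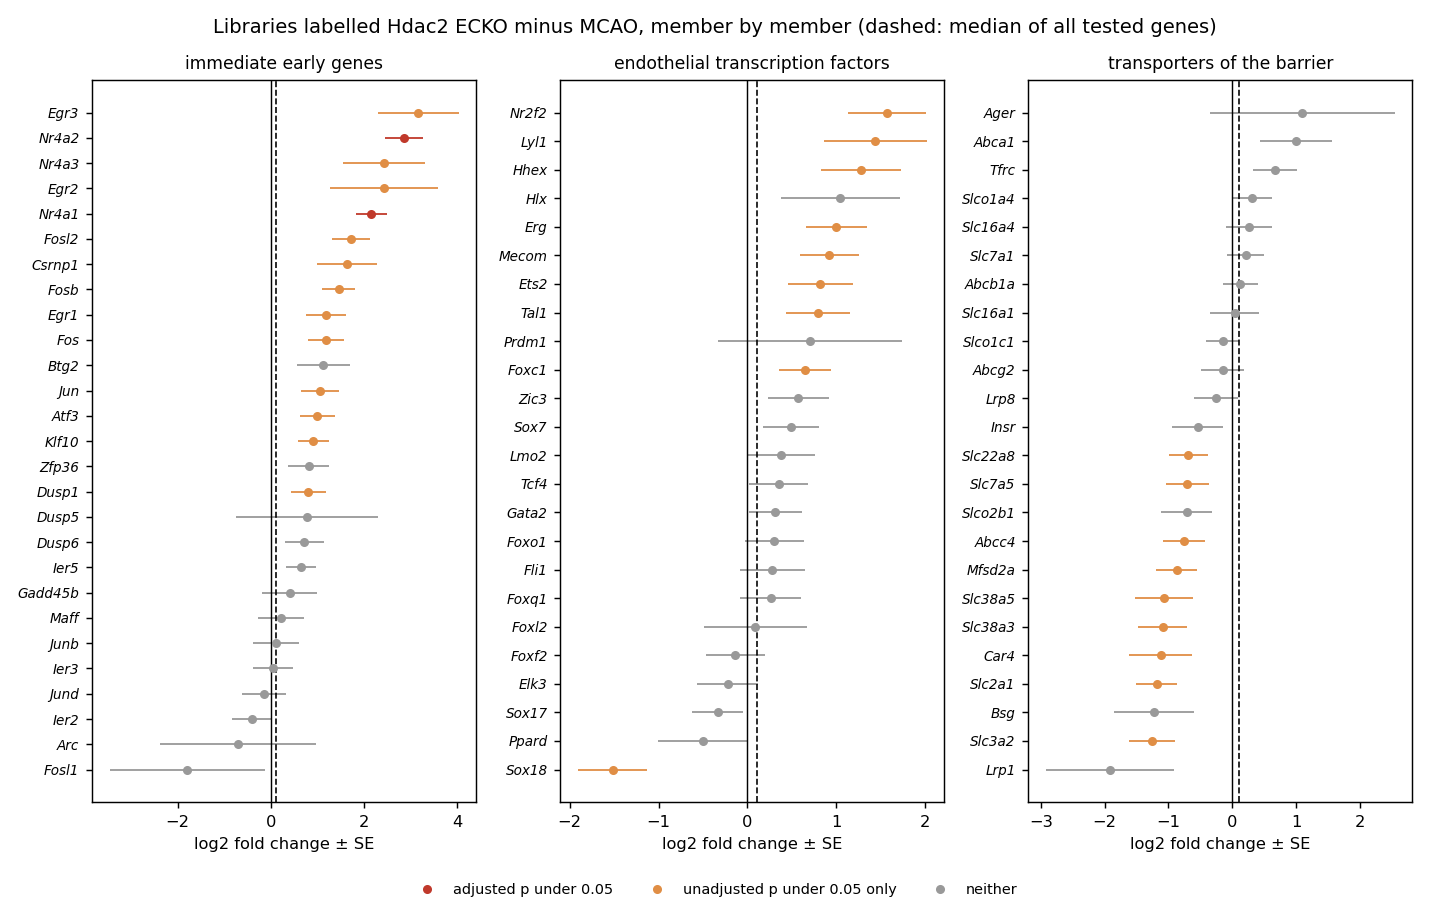
Log2 fold change with its SE (horizontal) of each tested member of 3 lists, libraries labelled Hdac2 ECKO minus MCAO. Nr4a1 and Nr4a2 (red) passed the adjusted threshold, orange points passed only an unadjusted p under 0.05, and the dashed line is the median of all tested genes, 0.11.

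Beyond the 2 called genes, 12 higher genes were named by the smallest unadjusted p among genes whose groups did not overlap and whose mean reached 10 CPM. Their adjusted p ran from 0.0639 to 0.244. DESeq2 called all 12, where its background of higher calls was 0.591%, and voom 11, where it was 0.152%. The selection by p in this contrast favours such counts. In 8 of the 12 the libraries labelled Hdac2 ECKO were above all 15 other libraries, and in 8 MCAO replicate 3 was the nearest control. Adamts1 (chromosome 16, 85793827 to 85803113, minus strand), a secreted metalloprotease that cuts matrix proteoglycans, stood at 532, 269 and 322 CPM against 119, 104 and 107 CPM (1.77 ± 0.31, adjusted p 0.0639). It passed in 7 of 19 alternative fits.

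Slc38a2, a sodium-coupled carrier of neutral amino acids, stood at 693, 776 and 1055 CPM against 314, 183 and 313 CPM (1.64 ± 0.33, 0.127), and sham libraries stood at 345 to 354 CPM. Amd1 and Amd2, which encode the decarboxylase that feeds polyamine synthesis, differed by 1.90 ± 0.36 (0.0817) and 1.86 ± 0.34 (0.0639). They are near-identical copies, so how the reads were split between them is uncertain. Scd2, a fatty acid desaturase, stood at 153, 114 and 171 CPM against 43.6, 36.1 and 77.2 CPM (1.48 ± 0.36, 0.24). Sham libraries, at 101 to 116 CPM, lay above the controls and overlapped the libraries labelled Hdac2 ECKO. Mgst1, a glutathione transferase of internal membranes, differed by 1.56 ± 0.37 (0.225).

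Auts2, which encodes a partner of Polycomb repressive complex 1, stood at 105, 63.0 and 73.5 CPM against 17.4, 12.1 and 26.3 CPM (2.11 ± 0.39, 0.0639). Libraries labelled Ezh2 ECKO overlapped them, at 47.5 to 92.5 CPM of Auts2. Csrnp2 stood at 28.4, 42.5 and 32.7 CPM against 5.84, 4.77 and 7.70 CPM (2.50 ± 0.50, 0.113), and no other library of the series reached its lowest value. Maf, a leucine zipper factor gene, differed by 2.47 ± 0.54 (0.186) and Ankrd37, a known hypoxia target, by 1.30 ± 0.30 (0.225).

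The 12 lower genes named by the same rule had adjusted p values from 0.0639 to 0.244. DESeq2 called all 12, beside 0.825% of all genes called lower, but voom called 1, beside 0.0351%. In all 12 the nearest control was MCAO replicate 3, and in 3 the libraries labelled Hdac2 ECKO were below all 15 others. Bcl2l1 (chromosome 2, 152780668 to 152831728, minus strand), which encodes the survival protein Bcl-xL, stood at 17.2, 27.3 and 13.3 CPM against 106, 152 and 50.1 CPM (−2.41 ± 0.44, adjusted p 0.0639). Sham libraries stood at 27.7 to 48.0 CPM and Ezh2 ECKO at 14.2 to 20.4 CPM. Without MCAO replicate 3 the whole comparison called 14 genes, 6 higher and 8 lower, with Bcl2l1 among them.

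Stip1, which bridges HSP70 and HSP90, stood at 4.89, 17.5 and 15.6 CPM against 87.6, 227 and 32.4 CPM (−3.19 ± 0.70, 0.182). Ahsa1, an activator of HSP90, stood at 10.9, 21.5 and 12.2 CPM against 110, 147 and 36.8 CPM (−2.72 ± 0.61, 0.215). Sham libraries, at 12.7 to 23.0 CPM, overlapped the libraries labelled Hdac2 ECKO for Stip1, and at 24 to 44.3 CPM lay above them for Ahsa1. Ccnd3, a cyclin of the G1 phase, stood at 40.3, 33.5 and 34.0 CPM against 133, 205 and 63.4 CPM (−1.90 ± 0.40, 0.161). Lims2, an adaptor of integrin-linked kinase, differed by −2.09 ± 0.44 (0.160), and Cap1, a regulator of actin filaments, by −3.16 ± 0.68 (0.162). Map3k6, a stress kinase gene, showed the largest difference of the 12 (−4.0 ± 0.95, 0.24). The other 5 were Paqr5, Golt1b, Palmd, Sult1a1 and Zdhhc9.

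**Figure D4:**
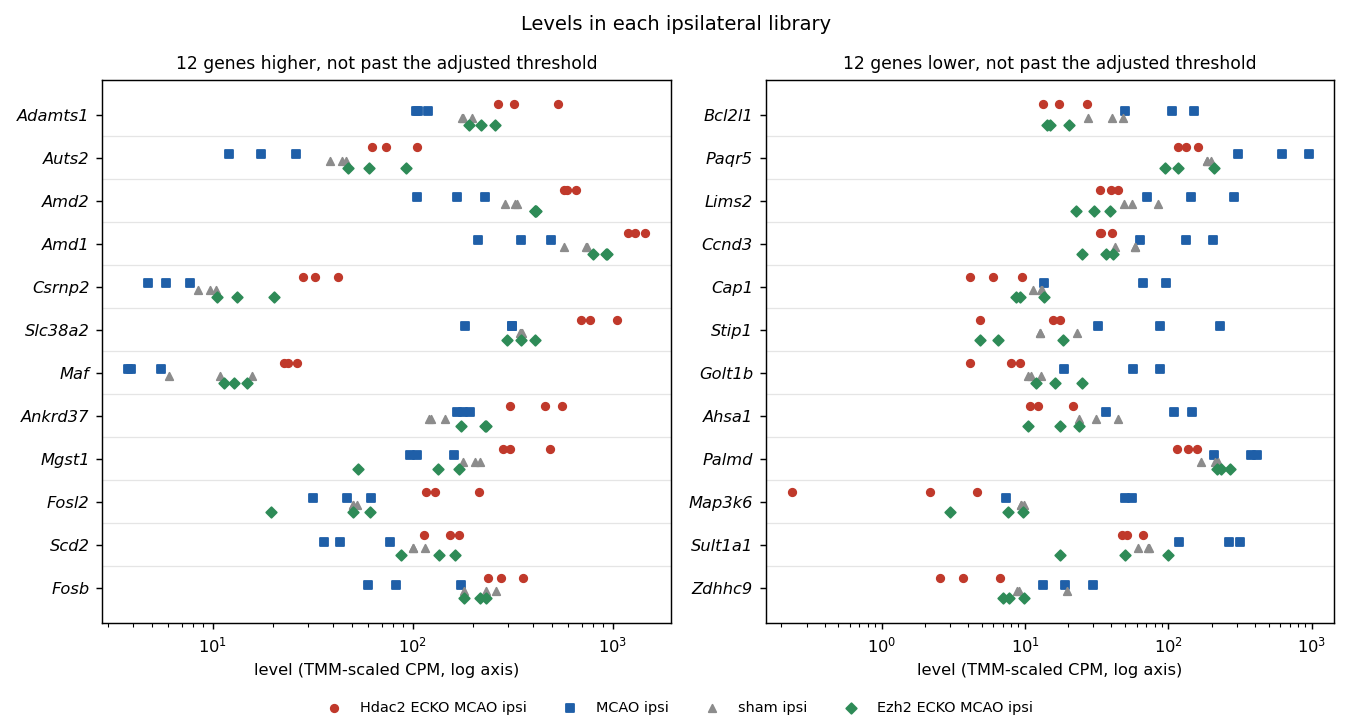
Level in TMM-scaled CPM (horizontal, log axis) in each ipsilateral library of 12 higher (left) and 12 lower genes (right) that missed the adjusted threshold. Libraries labelled Hdac2 ECKO (red circles) lie apart from the MCAO controls (blue squares) by the rule that chose the genes, and for the lower genes they often lie near sham (grey triangles) and Ezh2 ECKO (green diamonds).

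Heat shock chaperones, which fold proteins under stress, differed in both directions from the MCAO controls. Of 20 tested, 0 were called, 3 were higher and 6 lower at an unadjusted p under 0.05, beside 4.61% and 5.24% of all genes. The median was −0.56, and −0.34 without MCAO replicate 2. Against sham, 0 were called, 7 were higher and 0 lower, beside 4.54% and 2.6% of all genes, with a median of 0.53. In the comparison with Ezh2 ECKO 1 was called, beside 0.123% of all genes. There 7 were higher and 0 lower, beside 6.96% and 4.25%, with a median of 0.68. Hspa8, the constitutive HSP70, stood at 804, 961 and 1289.6 CPM against 2861, 3545 and 881 CPM (−1.25 ± 0.41, adjusted p 0.394). Hsp90ab1 stood at 288 to 370.0 CPM against 918, 1259.8 and 336 CPM (−1.35 ± 0.45, 0.405), and Hspb1 at 226 to 597 CPM against 1986, 2961 and 588 CPM (−1.99 ± 0.68, 0.405). In all 3 genes replicates 1 and 2 of the controls were high and replicate 3 overlapped the other group. Sham libraries stood at 673 to 715 CPM for Hspa8. Dnajb4, a cofactor of HSP70, went the other way without overlap, at 73.5, 61.1 and 121 CPM against 34.0, 46.0 and 31.8 CPM (1.19 ± 0.38, 0.394). Hsp90ab1 and Hspb1 were chosen after their values were seen.

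Transporters of the blood-brain barrier were lower as a list. None of 24 was called. At an unadjusted p under 0.05, 0 were higher and 9 lower, beside 4.61% and 5.24% of all genes, and the median log2 fold change was −0.62. Slc2a1, the glucose transporter of the barrier, stood at 942, 774 and 645 CPM against 1788, 2391 and 1195 CPM (−1.19 ± 0.33, adjusted p 0.304). Sham libraries stood at 674 to 1002 CPM, so for this gene the libraries labelled Hdac2 ECKO were near sham levels and the MCAO controls above them. Slc3a2, the heavy chain shared by large amino acid carriers, showed the same order, at 193, 257 and 248 CPM against 529, 719 and 415 CPM, with sham at 173 to 252 CPM (−1.25 ± 0.36, 0.338). In sorted pools fewer cells of a type and less RNA per cell cannot be told apart. The level of Ly6c1 given above was lower beside these values. Of the 11 endothelial markers 4 were higher and 1 lower at an unadjusted p under 0.05. The part of these markers in the transporter values was not tested. The list was also compared with the other groups. Against sham, 0 of the 24 were higher and 3 lower at that threshold, beside 4.54% and 2.6% of all genes. There 6 of 24 were above 0, beside 49.7%, with a median of −0.26. Against Ezh2 ECKO 1 was higher and 2 lower, beside 6.96% and 4.25%, with a median of −0.30.

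Other barrier transporters chosen after their values were seen gave a mixed picture. Mfsd2a, the carrier of lysolipids with omega-3 fatty acids, stood at 71.6, 75.2 and 110 CPM against 138, 185 and 146 CPM (−0.87 ± 0.32, 0.426), and here sham, at 131 to 165 CPM, was with the controls. Slc38a3, a glutamine carrier, stood at 60.2 to 71.1 CPM against 130.4 to 159 CPM (−1.09 ± 0.39, 0.415), with sham between them at 94.3 to 124 CPM. Car4, a carbonic anhydrase on the vessel lumen, differed by −1.12 ± 0.49 (0.479). The efflux pump gene Abcb1a stood at 802 to 1019.9 CPM against 733 to 876 CPM (0.13 ± 0.27, 0.898), and Tfrc, the transferrin receptor, differed by 0.67 ± 0.35 (0.537). Junction genes gave 1 higher and 1 lower of 16, near the shares of all genes, with a median of −0.16: Cdh5 differed by 0.68 ± 0.31 (0.496) and Esam by −1.07 ± 0.35 (0.394).

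Transcription factors of endothelial identity tended the other way against the MCAO controls. Of 24 tested, 0 were called, 8 were higher and 1 lower at an unadjusted p under 0.05, beside 4.61% and 5.24% of all genes. The median was 0.44, and ran from 0.25 without Hdac2 ECKO replicate 1 to 0.62 without MCAO replicate 3. Against sham, 0 were higher and 0 lower at that threshold, beside 4.54% and 2.6% of all genes, with a median of −0.08. In the comparison with Ezh2 ECKO 1 was higher and 1 lower, beside 6.96% and 4.25%, with a median of −0.21. Erg, which maintains endothelial gene expression, stood at 188, 149 and 146 CPM against 94.6, 56.3 and 90.8 CPM (1.00 ± 0.34, adjusted p 0.406). Libraries labelled Ezh2 ECKO overlapped those labelled Hdac2 ECKO for Erg, at 114 to 197 CPM, and sham stood at 80.9 to 131 CPM. Nr2f2, the venous identity factor, stood at 37.7, 31.0 and 51.1 CPM against 15.0, 11.3 and 13.8 CPM (1.58 ± 0.44, 0.306). Sham libraries, at 25.9 to 35.8 CPM, overlapped the libraries labelled Hdac2 ECKO for Nr2f2. The lower factor was Sox18, at 124, 152 and 104 CPM against 300, 548 and 238 CPM (−1.52 ± 0.39, 0.273). Hhex, Mecom, Lyl1, Ets2, Foxc1 and Tal1 were the other higher factors, with differences of 0.65 to 1.44 and adjusted p values of 0.409 to 0.489. Erg and these 6 were chosen after their values were seen.

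Arterial and Notch genes were next. Of 15 arterial genes 5 were higher and 1 lower at an unadjusted p under 0.05, again beside 4.61% and 5.24% of all genes. The arterial median was 0.42, and ran from 0.30 without MCAO replicate 3 to 0.68 without MCAO replicate 1. Gkn3, a marker of brain arteries, stood at 540, 545 and 561 CPM against 240, 95.7 and 192 CPM (1.64 ± 0.42, adjusted p 0.273). Sham libraries stood at 230 to 489 CPM of Gkn3 on the ipsilateral and 471 to 665 CPM on the contralateral side. Vegfc, a growth factor gene, stood at 56.2, 59.8 and 68.7 CPM against 20.7, 21.1 and 23.3 CPM (1.5 ± 0.37, 0.247). Sham ipsilateral libraries, at 22.5 to 70.1 CPM, overlapped the libraries labelled Hdac2 ECKO for Vegfc. Of the 15 arterial genes 4 were higher and 0 lower against sham ipsilateral, beside 4.54% and 2.6% of all genes, with a median of 0.73. Of 18 Notch pathway genes 4 were higher and 0 lower, with a median of 0.42 that was 0.16 without Hdac2 ECKO replicate 1 and 0.61 without Hdac2 ECKO replicate 3. Hes1, a direct Notch target, stood at 3032, 1775 and 2316 CPM against 970.4, 951 and 1131 CPM (1.22 ± 0.33, 0.301). Efnb2 differed by 1.31 ± 0.40 (0.394). The libraries labelled Ezh2 ECKO overlapped those labelled Hdac2 ECKO for both genes, at 1332 to 2699.6 CPM for Hes1.

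Inflammatory, proliferative and signalling lists are read against the same shares of all genes, 4.61% higher and 5.24% lower. Of 25 leukocyte adhesion and NF-kB genes 4 were higher and 0 lower. Their median of 0.06 turned to −0.09 without Hdac2 ECKO replicate 1 or 3 and to −0.06 without MCAO replicate 1, and was 0.28 without MCAO replicate 3. Tnfaip3, a feedback inhibitor of NF-kB, stood at 70.6, 52.5 and 32.5 CPM against 11.9, 7.24 and 17.4 CPM (2.09 ± 0.58, adjusted p 0.306), and the adhesion receptor gene Vcam1, chosen after its values were seen, at 182 to 248 CPM against 96.0 to 112 CPM (1.02 ± 0.32, 0.394). Interferon-induced genes gave 1 and 1 of 25. Of 24 cell cycle genes 0 were higher and 2 lower, with a median of −0.81. That median was −0.33 without MCAO replicate 3 and −1.50 without Hdac2 ECKO replicate 2. Cdk1, which drives entry into mitosis, was at a low level: it stood at 0.0602 to 0.441 CPM against 0.729 to 2.78 CPM (−2.89 ± 1.22, 0.462). Of 22 VEGF receptor and tip cell genes 3 were higher and 2 lower. Angpt2, a Tie2 ligand, was lower at 7.47, 8.91 and 9.17 CPM against 19.3, 16.9 and 32.7 CPM (−1.43 ± 0.51, 0.417). Sham ipsilateral libraries, at 5.72 to 11.1 CPM, overlapped the libraries labelled Hdac2 ECKO for Angpt2. Of 27 Wnt and beta-catenin genes 3 were higher and 1 lower, with Ctnnb1 at 1177 to 1473 CPM against 464 to 851 CPM (0.99 ± 0.31, 0.394). For Ctnnb1 too, sham ipsilateral libraries overlapped those labelled Hdac2 ECKO, at 1007 to 1425 CPM.

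**Figure D5:**
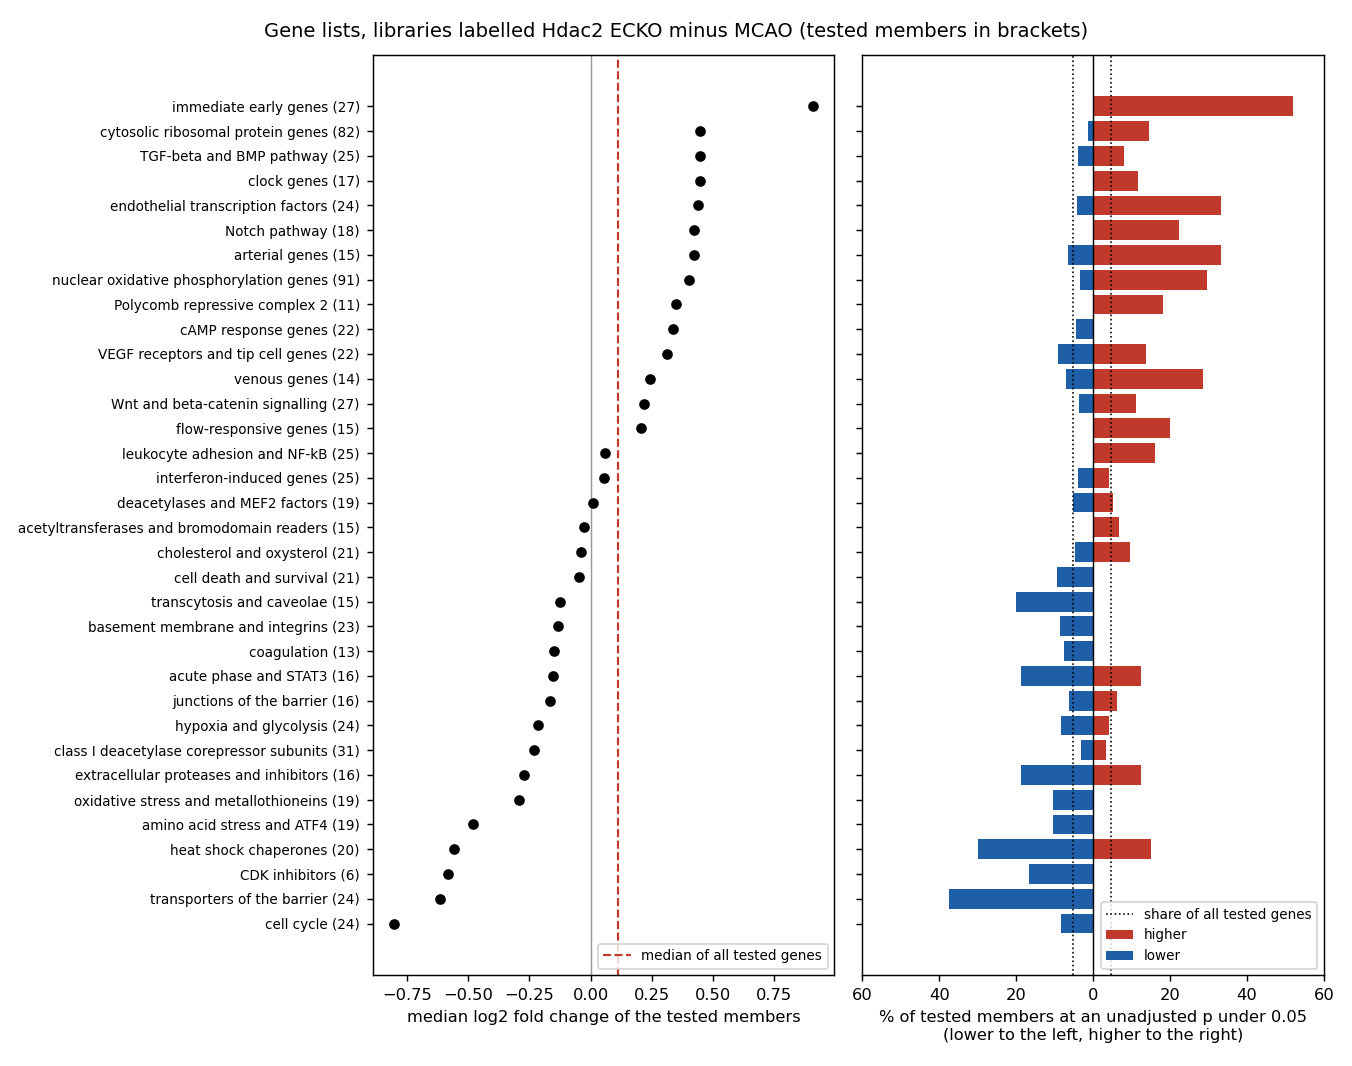
Median log2 fold change of the tested members of 34 gene lists (left) and the share of members at an unadjusted p under 0.05 (right; lower to the left, higher to the right), libraries labelled Hdac2 ECKO minus MCAO. The dashed and dotted lines give the same over all tested genes, and immediate early genes stand highest, with a median of 0.91, while cell cycle genes stand lowest, with −0.81.

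A direct comparison set the libraries labelled Hdac2 ECKO, used above as well, against those labelled Ezh2 ECKO. A total of 21 of 17094 genes (0.123%) were called, 20 higher (0.117%) and 1 lower (0.00585%) in the former group, and 1916 (11.2%) had an unadjusted p under 0.05. Globin genes, which mark red cells, were among the called genes: Hba-a1 stood at 98933, 74502 and 16743 CPM against 232, 27.1 and 77.7 CPM. The libraries labelled Ezh2 ECKO were the unusual ones here. Hba-a1 stood at 12409 to 20543 CPM in the MCAO controls and 5739 to 19150 CPM in sham ipsilateral libraries. The part of the red cell genes in the other calls was not tested beyond the fit without globin genes given below. Of the endothelial genes, Gkn3 stood at 64.5 to 165 CPM in the libraries labelled Ezh2 ECKO, a difference of 2.37 ± 0.43 (adjusted p 0.0296). Alpl, which encodes an alkaline phosphatase, stood there at 17.1 to 23.9 CPM against 73.1 to 110 CPM (2.03 ± 0.38, 0.0300). The MCAO controls, at 58.3 to 83.3 CPM, and sham ipsilateral libraries, at 46.7 to 118 CPM, also lay above the Ezh2 ECKO level of Alpl. With globin genes left out before scaling, 3 genes were called. The 3 and 3 libraries did not overlap for 6.87% of genes in the higher and 5.26% in the lower direction. Against sham ipsilateral, edgeR called 0 genes, with 1221 (7.14%) at an unadjusted p under 0.05, while DESeq2 called 256 and voom 266. Here 6.96% of genes were higher and 8.34% lower without overlap.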

How the data were processed

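RNA of sorted cortical endothelial cells was sequenced in 18 libraries, 6 groups of 3, of which 6 libraries enter the main comparison. The authors deposited a table of counts for 21638 genes. The submitters' processing notes name FastQC, cutadapt, STAR, featureCounts, DESeq2 and the build mm10; versions, the annotation and the strand setting are not given in the sources used here, so reads of a gene and its antisense partner cannot be told apart. The table is named as normalized, but its values are whole and their totals differ between libraries, so they were used as counts. Of the counts from 1 to 20, 77.3% to 89.4% were even, and fitting halved counts was an alternative. Columns with no sample numbered 0.

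Genes that reached a count of 10 in 3 or more libraries were tested with edgeR 4.0.16 (quasi-likelihood F-test, TMM scaling, Benjamini-Hochberg over 17094 genes) in R 4.3.3, in 1 fit of 6 group means over all 18 libraries. The common biological coefficient of variation was 0.774. Errors of log2 fold changes are SEs from that fit. A count of 3 in a control library is worth about 0.07 CPM. Alternatives were DESeq2 1.42.0, limma 3.58.1 (voom with sample weights), other scalings and filters, covariates and leaving out each library. The script was tested on simulated data.

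Groups came from the labels. The members and gene lists were chosen with earlier results of these data known. Genes were named as follows: Hdac2, each called gene, the 12 higher and 12 lower genes with the smallest p that had no overlap between groups and a mean of at least 10 CPM, and the 2 with the smallest p in each list. Others are said to be chosen after their values were seen, except the class I deacetylases, Nr4a3 and marker genes. Coordinates are those of GRCm38 as in the table, counted from 1. Of its symbols, 21442 were found in GENCODE M21.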

Additional observations from a re-analysis of the deposited data

Results flagged for a closer look

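A direct test between the libraries labelled Hdac2 ECKO and those labelled Ezh2 ECKO called 21 genes. Only 3 were called with globin genes left out before scaling, and 4 with voom. Gkn3, the marker of brain arteries, was higher in the libraries labelled Hdac2 ECKO by 2.37 on the log2 scale (edgeR adjusted p 0.0296), at 540, 545 and 561 CPM against 165, 64.5 and 89.5 CPM. Hspa1a, an inducible HSP70 gene, was higher by 3.31 (adjusted p 0.0300), at 167, 343 and 114 CPM against 16.9, 19 and 26.9 CPM. For both genes each library labelled Hdac2 ECKO was above each labelled Ezh2 ECKO. Hspa1a was also at 108, 132 and 34.2 CPM in the MCAO controls. The only gene called lower was Mipol1, at 0.595, 3.67 and 2.29 CPM against 23.0, 46.5 and 11.8 CPM.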

How the results depend on the processing

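Between the libraries labelled Hdac2 ECKO and the MCAO controls, the 2 called genes became 242 with DESeq2, 32 with voom, 4 with RLE scaling, 5 with a minimum count of 50, 10 with the background of receptor genes as a covariate and 1 with the 6 libraries alone. With the GC or length trend of each library removed, alternatives added after seeing the data, it was 1 and 6. Leaving out 1 library gave 0 to 14. Against Ezh2 ECKO the 21 calls became 659 with DESeq2, 4 with voom, 32 with the minimum of 50, 38 with no filter, 54 with the covariate, 3 without globin genes, and 44 and 33 with the trends removed, and leaving out 1 library gave 9 to 73. Against sham the 0 calls became 256 with DESeq2, 266 with voom, 2 with RLE scaling, 1 with the minimum of 50, 1 with no filter, 10 with the 6 libraries alone, 6 with the covariate and 2 with the GC trend removed. The causes were not tested.

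The median of all genes was 0.11 with TMM, 0.20 with RLE scaling and 0.24 with no filter, and with no filter 1255 genes were higher and 712 lower at an unadjusted p under 0.05. Nr4a1 kept its direction in all 19 alternatives, at 1.91 to 2.53, and Nr4a2 at 2.65 to 3.05. The difference of Hdac2 turned to 0.014 with the length trend removed and 0.029 with no filter, and lay from −0.24 to 0.021 when 1 library was left out, above 0 without Hdac2 ECKO replicate 1 or MCAO replicate 3. With 1 library left out Hdac3 lay from −0.20 to 0.49, below 0 without Hdac2 ECKO replicate 3, and Abcb1a from −0.013 to 0.17, below 0 without Hdac2 ECKO replicate 1. Ier2 turned to 0.021 with the GC trend removed. Replicate numbers did not pair the samples (same-number correlations of deviations of −0.104, 0.072 and 0.00011), and with the replicate block 2 genes were called, 9 against Ezh2 ECKO and 0 against sham.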

Other observations

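Genes of the translation and respiration machinery gave counts that depend on how they are taken. Of 82 cytosolic ribosomal protein genes 12 were higher and 1 lower at an unadjusted p under 0.05 against the MCAO controls, with a median of 0.45, and of 91 nuclear oxidative phosphorylation genes 27 were higher and 3 lower, with a median of 0.40. Over all genes the shares were 4.61% and 5.24%. Without overlap between the groups, 2 ribosomal genes were higher and 3 lower, and 8 and 12 of the respiratory genes, beside 9.54% and 10.3% of all genes. Without Hdac2 ECKO replicate 1 the medians were 0.13 and 0.04, and without replicate 3 of that group 0.78 and 0.74. Cox6c, a subunit of cytochrome c oxidase, stood at 3913, 2740.0 and 1434 CPM against 875, 918 and 1373 CPM (1.35 ± 0.42, adjusted p 0.394). Replicate 1 of the libraries labelled Hdac2 ECKO was the highest and replicate 3 only just above the controls. Against sham, 82 of 82 ribosomal genes were above 0. After a GC correction of every library, the medians against the MCAO controls were 0.55 for the ribosomal and 0.56 for the respiratory genes.

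Single genes of other lists stood apart from the MCAO controls. Nqo1, a quinone reductase of the antioxidant response, stood at 0.0661, 0.602 and 0.294 CPM against 7.29, 9.97 and 6.98 CPM (−4.64 ± 1.2, adjusted p 0.273), with sham at 2.25 to 5.01 CPM. A count of 3 was worth 0.088 to 0.099 CPM in the libraries labelled Hdac2 ECKO. Nqo1 was thus at a low level there, and the size of its difference is uncertain. Bcl2, a survival gene related to Bcl2l1, stood at 2.31, 2.35 and 3.94 CPM against 9.25, 10.8 and 13.3 CPM (−1.96 ± 0.57, 0.347), and here sham, at 8.66 to 12.9 CPM, was with the controls. Tgfb2, a TGF-beta ligand, stood at 133 to 141 CPM against 28.7, 18.7 and 94.2 CPM (1.54 ± 0.61, 0.439). Sham ipsilateral libraries, at 105 to 131 CPM, lay close below the libraries labelled Hdac2 ECKO for Tgfb2. Those labelled Ezh2 ECKO overlapped them, at 84.7 to 143 CPM. Insig1, which restrains sterol synthesis, stood at 24.4 to 29.1 CPM against 8.66 to 11.0 CPM (1.37 ± 0.44, 0.394).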
